A study of Mus musculus with 2 samples.

Results

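Histone deacetylases are the enzymes that remove acetyl groups from lysines of histones and other proteins. The 10 zinc-dependent genes Hdac1 to Hdac10 were looked up by their symbols in both deposited libraries, and all 10 were found among 22886 genes, each on 1 line per file, so that no lines had to be summed. Per the labels, poly(A) RNA came from FACS-sorted aerobic tumor cells, taken from LLC tumors under the skin of wild type C57BL/6 mice after an injection of either vehicle or clodronate. LLC is the Lewis lung carcinoma line, and clodronate is usually packed in liposomes to deplete macrophages. Each condition was 1 library, so that no difference below has a replicate check, and the sort gate, the dose, the time of injection and the age and number of mice are not given in the sources used here. A growth protocol in the labels named EML, a blood progenitor line, and went against the tissue label. The values were RPKM, reads scaled to transcript length and library size, and are comparable between genes as levels per length.

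The family is divided by sequence and by how the enzymes are held in the cell. Class I enzymes (Hdac1, Hdac2, Hdac3 and Hdac8) are mostly nuclear, and apart from Hdac8 they act inside large corepressor complexes. Class IIa enzymes (Hdac4, Hdac5, Hdac7 and Hdac9) have little catalytic activity of their own, bind MEF2 transcription factors and shuttle between nucleus and cytoplasm when kinases create docking sites for 14-3-3 proteins. Class IIb enzymes act largely outside chromatin, Hdac6 on tubulin and Hsp90 and Hdac10 on polyamines. In macrophages, Hdac3 is known as a regulator of inflammatory gene expression.

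The cell labels were first compared with marker genes. All 14 macrophage markers reached at least 10 RPKM in both libraries, with summed levels of 26664 (vehicle) and 25470 RPKM (clodronate), whereas 4 of 7 epithelial markers were listed at 0 in both and the other three stayed between 1.33 and 6.44 RPKM. Lyz2, at 10534 and 11189 RPKM, was the largest part of the macrophage sums. Single macrophage markers were not level, with 8 higher and 6 lower in the clodronate library. Their log2 ratios ran from -0.96 for C1qc, at 3984 and 2043 RPKM, to 0.88 for Fcgr1, at 22.5 and 42.3 RPKM. Among the neutrophil markers, 6 of 8 were listed at 0 in both libraries, S100a9 and Mpo among them, while S100a8 had 12.7 and 23.1 RPKM and Csf3r 26.4 and 19.3 RPKM. Of the 7 T and NK cell markers found, 3 were listed at 0 in both, and Cd4 was the highest at 10.3 and 7.72 RPKM. Of 6 blood progenitor markers Gata1 was listed at 0 in both, and Cd34 was the highest at 2.60 and 1.02 RPKM. The label tumor cells is thus not borne out by epithelial markers, and macrophage RNA was abundant in both libraries. Markers particular to LLC cells were not examined. More RNA per cell and more cells of a type cannot be told apart in such bulk libraries. From the steps in the low values, the vehicle file corresponds to about 12800000 reads or read pairs and the clodronate file to about 10300000, and the reads behind each member were estimated from this and from annotated transcript lengths.

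All 10 deacetylases passed the minimum mean of 1 RPKM that 10982 genes reached. The family summed to 116 RPKM with vehicle and to 143 RPKM with clodronate, and the higher sum came mostly from class IIa. Hdac5, Hdac4 and Hdac9 were each between 1.64 and 1.69 times as high in the clodronate library, Hdac8 was 2.81 times as high at a low level, Hdac2 was 1.24 times as high, and Hdac1, Hdac3, Hdac7, Hdac6 and Hdac10 lay between 0.925 and 1.15 times their vehicle values. Of the 10 genes, 8 were higher and 2 lower in the clodronate library, beside 51.6% of all genes tested that were higher, and with the GC and length trends described below subtracted 6 were higher and 4 lower, beside 49.98%. Without that correction, their median log2 ratio of clodronate RPKM + 1 over vehicle RPKM + 1 was 0.23, against 0.019 over all genes tested. The sign of Hdac7, at 0.027, also turned under upper-quartile scaling, to -0.027.

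**Figure D1:**
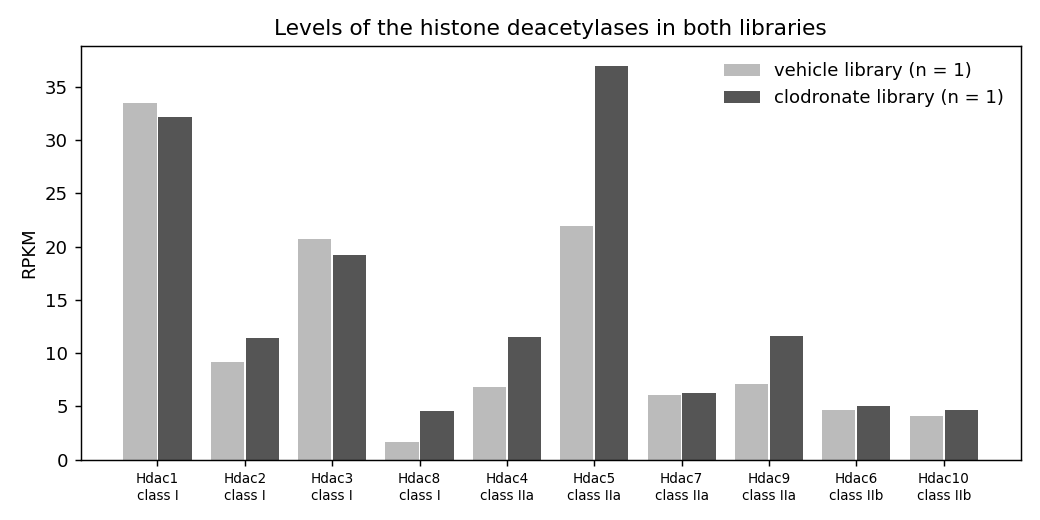
Level of each deacetylase in RPKM (vertical axis, from 0) in the vehicle library (light bars) and the clodronate library (dark bars), 1 library each and therefore without error bars. Hdac5, at 21.9 and 37.0 RPKM, lies below Hdac1 in the vehicle and above it in the clodronate library, where Hdac1 is at 33.5 and 32.1 RPKM, while Hdac8 is the lowest member in both.

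Hdac4, Hdac5 and Hdac9 had like ratios before the GC and length trends described below were subtracted. After it their log2 ratios were 0.51, 0.38 and 0.82. Because of the like uncorrected ratios, the sequences around their start sites are shown, from 250 bases before to 50 bases after the start. The sequences are as RefSeq gives them on GRCm38.p6, a later build than that of the deposited files. Capitals mark the 8-letter core of a MEF2 motif, TATTTTTA or TAAAAATA, and the CCAAT box, CCAAT or ATTGG. These and 3 further motifs named below were searched on both strands, and all were chosen after the sequences had been read. Hdac4 lies on the minus strand at chr1:92180292-92180591, Hdac5 on the minus strand at chr11:102230123-102230422, and Hdac9 has start sites on the minus strand at chr12:34917046-34917345 and chr12:34528840-34529139.
Hdac4: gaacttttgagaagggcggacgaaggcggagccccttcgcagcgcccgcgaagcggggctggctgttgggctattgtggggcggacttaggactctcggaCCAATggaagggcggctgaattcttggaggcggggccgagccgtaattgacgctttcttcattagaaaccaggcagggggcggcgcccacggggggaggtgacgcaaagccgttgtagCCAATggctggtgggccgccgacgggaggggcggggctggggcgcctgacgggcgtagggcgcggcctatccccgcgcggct
Hdac5: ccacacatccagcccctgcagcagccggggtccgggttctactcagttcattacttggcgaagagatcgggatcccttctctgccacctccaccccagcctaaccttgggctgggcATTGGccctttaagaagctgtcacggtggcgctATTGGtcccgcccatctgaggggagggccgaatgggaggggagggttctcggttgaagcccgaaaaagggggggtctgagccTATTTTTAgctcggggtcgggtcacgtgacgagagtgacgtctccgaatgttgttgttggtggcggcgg
Hdac9, first start site: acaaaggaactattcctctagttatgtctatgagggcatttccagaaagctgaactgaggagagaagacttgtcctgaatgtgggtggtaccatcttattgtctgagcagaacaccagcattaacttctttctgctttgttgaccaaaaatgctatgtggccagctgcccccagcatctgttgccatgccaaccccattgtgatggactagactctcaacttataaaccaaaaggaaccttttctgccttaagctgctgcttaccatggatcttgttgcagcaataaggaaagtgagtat
Hdac9, second start site: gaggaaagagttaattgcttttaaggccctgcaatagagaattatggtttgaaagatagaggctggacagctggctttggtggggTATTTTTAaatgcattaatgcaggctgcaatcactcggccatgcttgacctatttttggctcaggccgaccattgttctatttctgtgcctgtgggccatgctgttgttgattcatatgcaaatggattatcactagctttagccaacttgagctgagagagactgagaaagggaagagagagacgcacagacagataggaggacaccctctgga

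No motif searched was present in all 4 windows. The MEF2 core was found once in the Hdac5 window, where its first base lay at -19 relative to the start, and once at the second Hdac9 start site, at -165, but neither in the Hdac4 window nor at the first Hdac9 start site. Of all 32851 windows of this length in the table, 2.72% held it. The CCAAT box was present in 2 copies each in the Hdac4 and Hdac5 windows and in 37.4% of all windows. The GC box, GGGCGG or CCGCCC, was present in 5 copies in the Hdac4 window and 1 copy in the Hdac5 window, in neither Hdac9 window and in 35.7% of all windows. The E box CACGTG and the cAMP response core TGACGT or ACGTCA were found in the Hdac5 window only among the 4, and in 7.15% and 7.51% of all windows. Of the 11 windows found for members, 5 held a GC box, 4 a CCAAT box, 2 the MEF2 core and 1 each the E box and the TGACGT core. The Hdac4 window was 68.0% GC with 32 CpG dinucleotides and the Hdac5 window 60.7% GC with 18, whereas the Hdac9 windows were 44.0% and 45.3% GC with 0 and 3. Across all windows the median was 52.7% GC with 7 CpG. Of the other members, windows were found for Hdac2, Hdac6, Hdac7 and Hdac8, and not for Hdac1, Hdac3 and Hdac10. The 4 Hdac7 windows held neither the MEF2 core nor a CCAAT box. The Hdac8 and Hdac6 windows held 2 CCAAT boxes each, which overlap in the Hdac8 window, and no MEF2 core. These matches describe letters in a window and not binding.

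In class I, Hdac1 had the highest level of the 10 genes in the vehicle library. It had 33.5 RPKM with vehicle and 32.1 RPKM with clodronate, about 872 and 675 reads, and a ratio of 0.961 with a 95% counting interval from 0.868 to 1.06. The interval is exact, rests on the estimated reads and covers counting error only, not the difference between mice, sorts or library preparations. Hdac1 is also the member with the least certain level, since 58.7% of the 50-base stretches of its transcript recur in transcripts of other genes, mostly in the annotated gene Gm10093, which has no line in the files. For Hdac4 and Hdac5 this share was 1.08% and 1.66%, and for the other seven members no such stretch was found. Hdac2, which pairs with Hdac1 in the same complexes, had 9.19 and 11.4 RPKM, a ratio of 1.24 with an interval from 1.03 to 1.49. Hdac3, the catalytic subunit of the NCoR complex, had 20.7 and 19.2 RPKM, a ratio of 0.925 with an interval from 0.812 to 1.06. The levels of Hdac1 and Hdac3 thus differed between the libraries by no more than counting error, and Hdac2 by slightly more.

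Hdac8, the class I enzyme that works without a corepressor complex and deacetylates cohesin, was the only member past 2-fold. It lies on chromosome X from 99479978 to 99700487 of mm9, the build in the processing notes of the submitters, and was the lowest member in both libraries. Its level was 1.62 RPKM with vehicle and 4.56 RPKM with clodronate, about 40 and 91 reads. The ratio was 2.81, with a counting interval from 1.93 to 4.21, and the log2 ratio was 1.08. Of all genes tested, 6.95% were at least 2-fold higher in the clodronate library, so that 1 of 10 members past this limit is near the background. When all genes tested were cut into 10 bins of about equal size by mean RPKM, the bin of Hdac8 held 1098 genes, of which 12.3% had a log2 ratio at least as high as that of Hdac8.

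The class IIa genes divided into Hdac4, Hdac5 and Hdac9 on one side and Hdac7 on the other. Hdac5 lies on chromosome 11 from 102057060 to 102091486 of mm9. It had 21.9 RPKM with vehicle and 37.0 RPKM with clodronate, about 1063 and 1443 reads, and stood second in the family with vehicle and first with clodronate. Its ratio was 1.69 with an interval from 1.56 to 1.83, and its log2 ratio of 0.73 was reached by 8.83% of the genes in its level bin. Hdac4, on chromosome 1 from 93829331 to 94044970, had 6.86 and 11.6 RPKM, about 710 and 965 reads, a ratio of 1.69 with an interval from 1.53 to 1.86. Hdac9, on chromosome 12 from 34732446 to 35601767, had 7.07 and 11.6 RPKM, about 290 and 382 reads, a ratio of 1.64 with an interval from 1.40 to 1.91. The log2 ratios of Hdac4 and Hdac9 were reached by 12.2% and 13.7% of the genes in their level bin. The Hdac9 locus includes 2 RefSeq transcripts, and the files give only their combined value. One known product of this gene, MITR, lacks the deacetylase domain, and its part in the level cannot be read from these files.

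Hdac7, known for its roles in endothelium and developing lymphocytes, had 6.09 and 6.22 RPKM, about 288 and 237 reads, and a ratio of 1.02 with an interval from 0.857 to 1.22. This interval lies below those of Hdac4, Hdac5 and Hdac9, so that the gap within the class was larger than counting error. The Hdac7 locus, on chromosome 15 from 97614795 to 97674933, shares its whole span in the files with Slc48a1, a heme transporter gene with 54.0 and 76.3 RPKM, and whether reads were exchanged between them was not tested. At 1.5-fold, Hdac4, Hdac5, Hdac9 and Hdac8 were higher and 0 members were lower, where 16.6% of all genes tested were higher and 16.3% lower. At 3-fold, 0 members were higher or lower, beside 2.86% and 2.32% of all genes. Under upper-quartile scaling Hdac9 was at 0.58 on the log2 scale, just under 1.5-fold. The log2 ratios of Hdac4, Hdac5, Hdac8 and Hdac9 lay above the 75th and below the 95th percentile of their level bins. The latter was 0.90 for Hdac5, 0.98 for Hdac4 and Hdac9 and 1.66 for Hdac8.

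**Figure D2:**
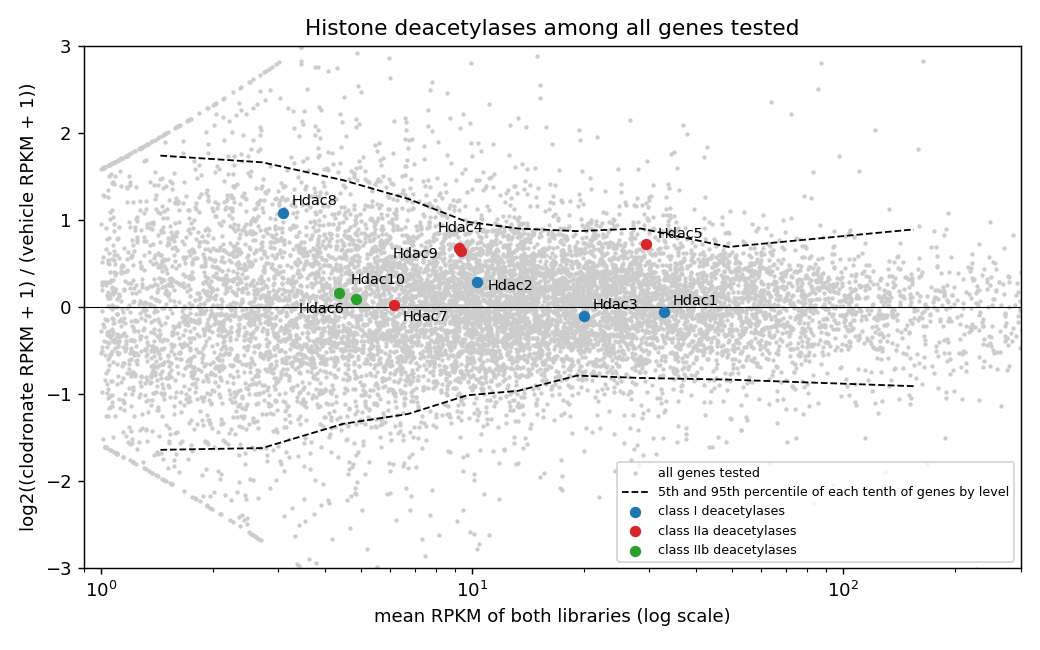
Log2 ratio of clodronate RPKM + 1 over vehicle RPKM + 1 (vertical axis) against the mean RPKM of both libraries (horizontal axis, log scale) for all genes tested (grey), of which 369 lie outside the axes, with the 5th and 95th percentile of 10 bins of genes by level (dashed lines, drawn at the median level of each bin). Hdac4, Hdac5, Hdac9 and Hdac8 lie between 0.64 and 1.08, inside the dashed lines, and the other members lie between -0.11 and 0.28.

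The ratios of all genes rose with GC content in these libraries, from a median log2 ratio of -0.24 in the lowest to 0.30 in the highest of 10 bins, and the class IIa transcripts span this range. The longest Hdac5 transcript is 60.9% GC, that of Hdac7 58.9%, that of Hdac4 52.5% and that of Hdac9 41.7%. With the trends of GC content and length subtracted, the log2 ratio was 0.38 for Hdac5, 0.51 for Hdac4, 0.82 for Hdac9 and -0.32 for Hdac7. The order within the class was then different, and Hdac9 in place of Hdac5 had the highest value. Of all genes so corrected, 23.6% reached the value of Hdac5, 17.9% that of Hdac4 and 9.66% that of Hdac9. Hdac8 and Hdac2 stood at 1.20 and 0.52, and Hdac1, Hdac3, Hdac6 and Hdac10 between -0.097 and 0.017. After this correction 2 members, Hdac8 and Hdac9, were at least 1.5-fold higher, beside 15.1% of the 10844 genes with a length, and 0 members were lower, beside 14.9%. At 2-fold Hdac8 alone was higher, beside 7.01%, and 0 members were lower, beside 5.68%, and at 3-fold 0 members passed in either direction, beside 2.88% and 1.82%.

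**Figure D3:**
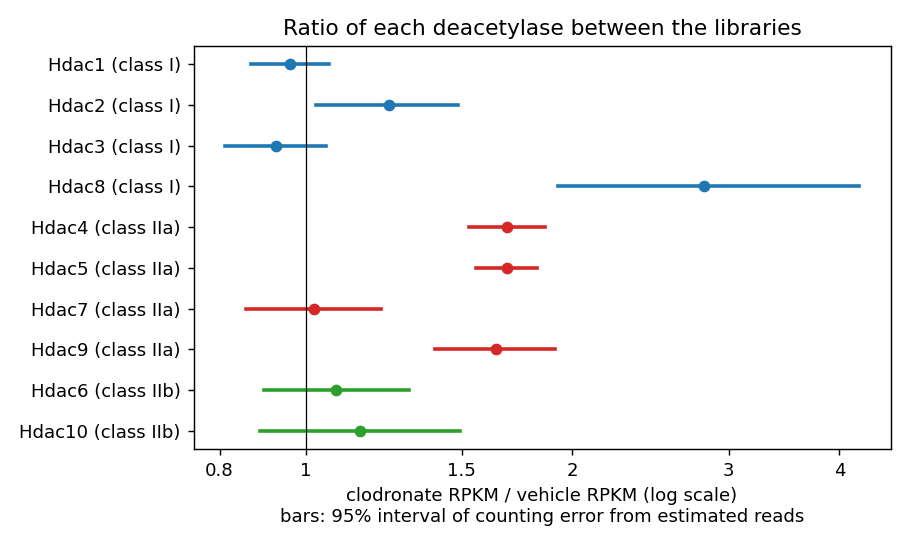
Clodronate RPKM over vehicle RPKM of each deacetylase (horizontal axis, log scale), coloured by class, with bars for the 95% interval of counting error from the estimated reads and a vertical line at a ratio of 1. The bars of Hdac4, Hdac5, Hdac8, Hdac9 and, narrowly, Hdac2 lie above 1, and those of the other 5 members hold 1.

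The class IIb genes were low and close between libraries. Hdac6, the cytoplasmic tubulin deacetylase, had 4.68 RPKM with vehicle and 5.06 RPKM with clodronate, a ratio of 1.08 with an interval from 0.897 to 1.31. Hdac10 had 4.07 and 4.70 RPKM, a ratio of 1.15 with an interval from 0.889 to 1.49. Neither difference was detectable at this depth. The class IV gene Hdac11, which is not among the 10 genes, had 0.570 RPKM in the vehicle library, was listed at 0 in the clodronate library and did not reach the minimum mean.

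The make-up of the family differed between the libraries. Class I held 56.2% of the summed RPKM of the 10 genes with vehicle and 46.9% with clodronate, although its own sum was close, 1.04 times as high with clodronate. Class IIa held 41.9 and 66.3 RPKM, a share of 36.3% and 46.3%, and its summed level was 1.58 times as high in the clodronate library. Class IIb held 7.56% and 6.81%. In order of level the vehicle library had Hdac1, Hdac5, Hdac3, Hdac2, Hdac9, Hdac4, Hdac7, Hdac6, Hdac10 and Hdac8, and the clodronate library had Hdac5, Hdac1, Hdac3, Hdac9, Hdac4, Hdac2, Hdac7, Hdac6, Hdac10 and Hdac8. Counting intervals of the levels overlapped for Hdac5 and Hdac3, for Hdac9 and Hdac4, for Hdac4 and Hdac7 and for Hdac6 and Hdac10 in the vehicle library. In the clodronate library they overlapped for Hdac9, Hdac4 and Hdac2 and between each neighbouring pair of Hdac7, Hdac6, Hdac10 and Hdac8, so that these neighbours have no firm order. There the interval of Hdac5 began at 35.1 RPKM, just above the end of that of Hdac1 at 34.7 RPKM. Such intervals do not cover the shared sequence of Hdac1, so that the order of Hdac5 and Hdac1 is not firm either. Hdac1 stood above 78.7% of the genes tested in the vehicle library and Hdac5 above 80.1% in the clodronate library, while Hdac8 stood above 8.12% and 26.1%.

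The partners of these enzymes were then examined, by lists of the corepressor complexes and regulators. The list of the NCoR complex, the docking platform of Hdac3 and of class IIa enzymes, had 0 of 4 genes past 2-fold in either direction and a median log2 ratio of 0.23. Ncor1, its scaffold gene, had the highest log2 ratio, 0.48, with 28.2 and 39.8 RPKM. Tbl1xr1, a subunit that exchanges corepressors, had the lowest, -0.50, with 14.8 and 10.2 RPKM. Gps2, a further subunit, was the most abundant of the list at 55.7 and 59.5 RPKM.

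The Sin3, NuRD and CoREST complexes, which carry Hdac1 and Hdac2, had medians closer to that of all genes. In the Sin3 complex 1 of 15 genes was at least 2-fold higher and 0 lower, with a median log2 ratio of 0.040. That gene was Sap30, a Sin3 subunit, at 2.15 RPKM with vehicle and 9.34 RPKM with clodronate, with a log2 ratio of 1.72. The scaffold gene Sin3b was the most abundant of the list at 104 and 77.8 RPKM, and Arid4a had the lowest log2 ratio, -0.73, with 18.0 and 10.4 RPKM. In the NuRD complex, which couples deacetylation to chromatin remodeling, 0 of 12 genes passed 2-fold, and the median was 0.13. Its values ran from Cdk2ap1, at 159 and 94.3 RPKM with a log2 ratio of -0.74, to Mta1, at 14.6 and 21.7 RPKM with 0.54. In the CoREST complex, which joins the deacetylases to the histone demethylase Kdm1a, 0 of 9 genes were 2-fold higher and 1 was lower, with a median of 0.031. This was Rcor2, with 2.64 and 0.393 RPKM and a log2 ratio of -1.39, whereas its paralog Rcor3 had 5.90 and 11.4 RPKM, a log2 ratio of 0.84, and Rcor1 was the most abundant of the list at 25.4 and 28.02 RPKM. Of all genes tested, 6.77% were at least 2-fold lower. The MiDAC complex, a mitotic deacetylase complex, had 0 of 3 genes past 2-fold, with Dnttip1 at 14.8 and 7.35 RPKM and Mideas, listed under its older symbol Elmsan1, at 9.89 and 16.2 RPKM. Dnttip1 had a log2 ratio of -0.92, short of the 2-fold limit only because 1 RPKM was added to each value. The median of the MiDAC list was 0.51, and -0.26 over the 2 genes with a length once the GC and length trends were subtracted. That subtraction also turned the median of the CoREST list, to -0.091, and upper-quartile scaling turned those of the Sin3 and CoREST lists, to -0.020 and -0.019.

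Of the genes that govern class IIa enzymes, the MEF2 factors Mef2a and Mef2d were abundant and nearly level. Mef2c was less abundant and higher in the clodronate library. Mef2a had 139 and 131 RPKM, Mef2d 101 and 105 RPKM and Mef2c 15.6 and 20.6 RPKM, with log2 ratios of -0.078, 0.051 and 0.38, while Mef2b was below the minimum mean. With the GC and length trends subtracted, the log2 ratios of Mef2a, Mef2d and Mef2c were 0.0036, -0.16 and 0.49. Among the 14-3-3 genes 1 of 7 was at least 2-fold higher. This was Sfn, with 1.60 and 7.19 RPKM and a log2 ratio of 1.66, while Ywhae, the most abundant, had 475 RPKM in both libraries and Ywhaq the lowest log2 ratio, -0.51. Of the 13 kinases listed as regulators of class IIa enzymes, 11 were tested and 0 passed 2-fold, with a median of 0.059. With the GC and length trends subtracted, the median of the kinases was -0.0090. The salt-inducible kinase gene Sik3 had the highest log2 ratio, 0.85, with 10.6 and 19.9 RPKM. Prkd2 had the lowest, -0.39, with 4.37 and 3.09 RPKM, and Camk1 was the most abundant, at 117 and 89.5 RPKM.

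The list of Hdac6 substrates and partners held 7 of 9 genes with a lower and 2 with a higher value in the clodronate library, with a median of -0.17, or -0.25 with the GC and length trends subtracted, and no gene past 2-fold. Tuba1b, an alpha-tubulin gene, had the lowest log2 ratio, -0.72, with 399 and 242 RPKM. The other alpha-tubulin genes Tuba1a and Tuba1c had log2 ratios of -0.56 and -0.46, and reads of these close paralogs may be split between them. Vcp, the segregase that works with Hdac6 on ubiquitinated proteins, had the highest log2 ratio, 0.41, and Hsp90ab1 was the most abundant at 470 and 567 RPKM.

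The NAD-dependent deacetylases and the opposing acetyltransferases had no gene past 2-fold. Of 7 sirtuins 6 were tested, with a median log2 ratio of 0.15. Sirt1, a nuclear sirtuin, had the lowest value, -0.81, with 12.3 and 6.58 RPKM, and Sirt2, a cytoplasmic tubulin deacetylase, was the most abundant at 67.8 and 82.1 RPKM and had the highest log2 ratio, 0.27. Of 10 histone acetyltransferase genes the median was 0.099, or -0.053 with the GC and length trends subtracted. Kat6a had the highest log2 ratio, 0.43, with 20.96 and 28.5 RPKM, and Kat8 the lowest, -0.41, with 20.3 and 15.05 RPKM. Crebbp was the most abundant at 47.2 and 56.7 RPKM.

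**Figure D4:**
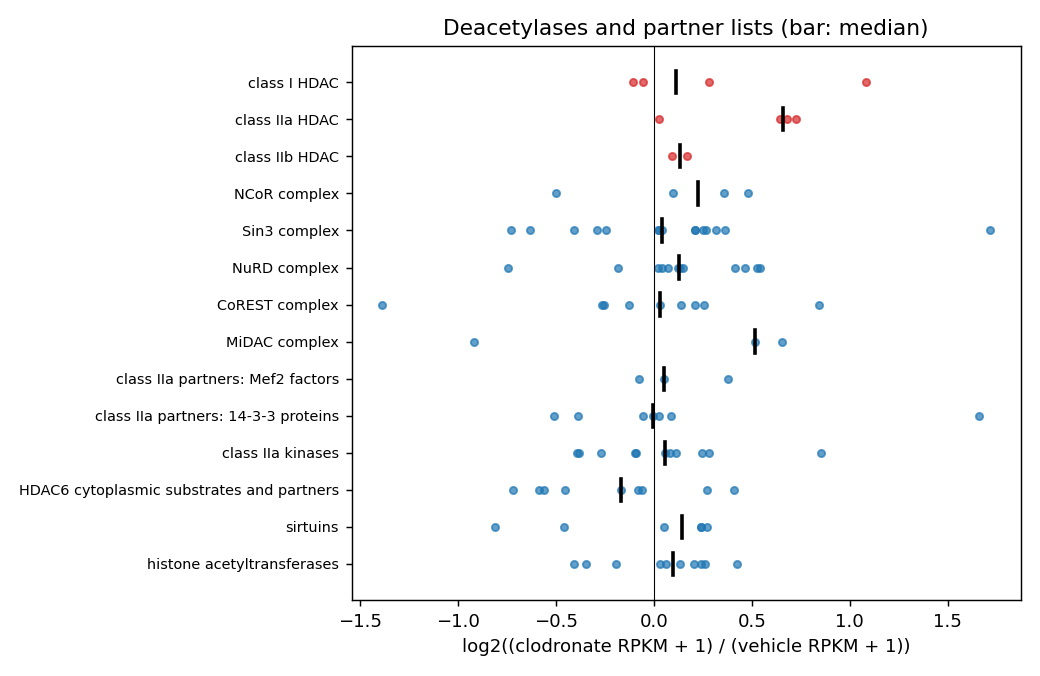
Log2 ratio of clodronate RPKM + 1 over vehicle RPKM + 1 (horizontal axis) of every tested gene of the deacetylase classes (red points) and of the partner lists (blue points), with a black bar at each list's median. Hdac4, Hdac5 and Hdac9 put the class IIa median at 0.66, while the medians of the partner lists lie between -0.17 and 0.51, the latter for the 3 genes of the MiDAC complex. With the GC and length trends subtracted, which is not drawn, the medians were 0.44 for class IIa, 0.25 for class I and -0.25 for the Hdac6 partners. The MiDAC median then turned to -0.26.

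Other features of the libraries differed between the conditions as well. Of 12 proliferation genes 11 were higher and 7 at least 2-fold higher in the clodronate library, with a summed level of 254 and 380 RPKM. The summed fibroblast markers were 156 and 75.4 RPKM, mostly from Dcn at 77.3 and 28.4 RPKM and Col3a1 at 62.1 and 34.4 RPKM, while Col1a1 went the other way, at 2.32 and 5.40 RPKM. The summed endothelial markers were 3.34 and 8.26 RPKM, with Pecam1 at 1.24 and 3.33 RPKM and Cdh5 at 0.480 and 3.24 RPKM, whereas Vwf had 0.967 and 0.443 RPKM and Tek was listed at 0 in both libraries. The part of these differences, and of those among the macrophage markers, in the ratios of Hdac8 and the class IIa genes was not tested. An effect of clodronate and a difference between single animals, sorts or preparations cannot be told apart.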

How the data were processed

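RNA of 1 vehicle and 1 clodronate library was analysed. The authors deposited RPKM for 23170 loci in each. The processing notes of the submitters name CASAVA 1.8.2, TopHat2 2.0.9, Bowtie 0.12.9, Cufflinks 2.2.1, Cuffdiff and the build mm9. The annotation release is not given in the sources used here. The paper under whose title the series was deposited describes no LLC tumor, and none of its methods were applied. Lines of 1 symbol were summed, and 26 symbols that had turned into numbers were replaced by RefSeq accessions.

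For 10982 genes whose mean over both libraries reached 1 RPKM, 1 was added to each value and the log2 of the clodronate to vehicle ratio was taken, a scale on which the change of low genes is understated. No test was possible with 1 library per condition, and a fixed limit of 2-fold was used. Members and lists were chosen with earlier results of these data known. All members, Hdac11 and, per list, the most abundant gene, the extremes of the log2 ratio and genes past 2-fold could be named, as could any gene of the marker lists. Mef2b, Mef2d, Tuba1a, Tuba1c and Slc48a1 lie outside this rule and were named after their values were seen. Some list genes are not reported here and were left out of the list's counts and medians.

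Values of RPKM times transcript length clustered at multiples of 1 step. In the vehicle library 147 loci lay within 0.15 steps of 1 step and 13 within 0.15 of 1.5 steps, in the clodronate library 233 and 15. This step was taken as 1 read. Reads of a member were estimated with the shortest GENCODE M21 transcript carrying its RefSeq accessions, and exact 95% intervals of counts and of ratios were computed from them. They cover counting error only. Transcript length and GC content were found for 98.7% of the genes tested and for all 10 members. Coordinates of mm9 and GRCm38 were not combined. Python 3.11.15, numpy 2.4.6, pandas 2.3.3, scipy 1.17.1 and matplotlib 3.10.9 were used, and the steps were tested on simulated data. Alternatives were another pseudocount, filter, scaling, fold limit and treatment of repeated symbols.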

Additional observations from a re-analysis of the deposited data

How the results depend on the processing

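No paired analysis was possible because there is only 1 library on either side. Correcting for GC content and length and leaving out Hdac8 were chosen after seeing the data. Of 369 values recomputed under alternatives, 337 stayed within the counting error or, for counts of genes, within 1.5 times, 32 moved by more, and no value past 2-fold changed sign. This tally includes alternatives that had little or no room to move a value. Each member has 1 line, and taking the highest line of a symbol changed none of these values. Many counts of genes were 0 under both the main setting and the alternative. Smaller log2 ratios and medians changed sign in 11 cases, 6 with the GC content and length correction, 4 with upper-quartile scaling and 1 with no filter. Without Hdac8 the members' median log2 ratio was 0.17.

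At 1.5-fold in place of 2-fold, 4 members were higher. Among the lists, given here only where the count changed, lower genes numbered 1 sirtuin, 2 of the Sin3, 1 of the NuRD, 1 of the MiDAC and 2 of the Hdac6 partner list. The CoREST, MiDAC and class IIa kinase lists had 1 higher gene each. At 3-fold, 0 members were higher and 0 CoREST genes lower. With the minimum mean raised to 5 RPKM, where Hdac8 drops out, 0 members and 0 of the 14-3-3 genes were 2-fold higher and 0 CoREST genes lower, and the Hdac6 partner median was -0.31. A fold limit or a filter sets directly which genes can be counted. Over all genes, 763 were 2-fold higher and 744 lower, against 346 and 356 with the stricter filter, 1828 and 1789 at 1.5-fold and 314 and 255 at 3-fold.

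With the GC content and length correction the log2 ratio was 0.51 for Hdac4, 0.38 for Hdac5 and -0.32 for Hdac7, and the median was -0.25 for the Hdac6 partners and -0.26 for the MiDAC complex, where 1 gene had no length. Upper-quartile scaling put the median of the Mef2 factors at -0.011 and of the 14-3-3 genes at -0.064. The cause was not tested.

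Without Hdac7 the class I share was 59.3% and 49.1% and the class IIa share 32.7% and 43.8% in the vehicle and clodronate libraries. Without Hdac1, whose transcript shares most of its sequence, class I held 38.4% and 31.6%, class IIa 51.0% and 59.6% and class IIb 10.6% and 8.77%. The class IIa share was higher in the clodronate library in each of these settings. Hdac7 and Hdac1 had ratios of 1.02 and 0.961, so that leaving either out could not turn this difference. Leaving out Hdac5, the class IIa gene with the highest level, was not tried. The shares were not recomputed with the GC content and length correction, which took the class IIa median log2 ratio from 0.66 to 0.44.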
